A study of Mus musculus with 9 samples.

Results

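Integrins, selectins and the adhesion ligands they bind were described in lung RNA of 9 mice. The genes were chosen by symbol, as all integrin alpha and beta chains, the selectins, P-selectin glycoprotein ligand 1, the ICAM genes 1, 2, 4 and 5, Vcam1 and Madcam1. This gave 36 of the 34638 genes in the table. Of these, 31 had a mean of at least 0.5 FPKM (fragments per kilobase of transcript, scaled to library size) over the 9 mice and were tested. The filter used all mice together, so a gene that was high in 1 group could pass through that group.

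All mice were wild-type C57BL/6, and RNA came from whole lung. Control mice received PBS. IL-33 mice received 0.5 µg of recombinant mouse IL-33 into the trachea on each day from day 0 to day 3, and IL-33+LM8 mice received the same IL-33 together with LM8, a MyD88 inhibitor, injected into the peritoneum at 10 mg/kg. Each group held 3 samples, taken here as 1 mouse each. The labels do not name the animals, so p-values measure the spread between these samples. Control and IL-33 mice were females of 6 to 8 weeks whose lungs were taken on day 4, and the age, sex and sampling day of the IL-33+LM8 mice were not given in the sources used here. IL-33 with LM8 was compared without a group that received LM8 alone, so an effect of LM8 outside IL-33 signalling cannot be told apart.

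Integrins are pairs of 1 alpha and 1 beta chain that hold cells to the matrix or to other cells. The beta2 chain pairs with the leukocyte alpha chains L, M, X and D, and the beta7 chain pairs with alpha4 and alphaE. The beta1 chain pairs with many alpha chains that bind collagen, laminin or fibronectin. During inflammation, selectins on endothelium and leukocytes let leukocytes roll, and leukocyte integrins then bind ICAM and VCAM ligands on the vessel wall. IL-33 acts through a receptor that signals via MyD88.

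Total counts lay between 53877663 and 90607218 per mouse. The 36 genes together took 0.348% to 0.366% of counts in control mice, 0.409% to 0.441% in IL-33 mice and 0.39% to 0.408% in IL-33+LM8 mice. Markers of leukocytes differed strongly between the groups. Summed FPKM of 6 neutrophil markers was 25.3 to 32.3 in control mice, 181 to 205 in IL-33 mice and 838 to 976 in IL-33+LM8 mice, led by S100a9. Summed FPKM of 6 eosinophil markers was 84.2 to 92.3, 571 to 623 and 136 to 171 in the same order. Nearly all of it was Ear2, with means of 83.25, 552.6 and 144.9, and Epx was at 0 in every control mouse. In bulk tissue, fewer cells of a type and less RNA per cell cannot be told apart.

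In IL-33 mice the leukocyte integrins, P- and E-selectin and the selectin ligand PSGL-1 rose together. The call rule was an adjusted p under 0.05 in edgeR's quasi-likelihood test (Benjamini-Hochberg, over all genes tested) with a change of at least 2-fold. By this rule 13 of 31 genes rose (41.9%, against 10.8% of all genes tested) and 2 fell (6.45%, against 6.24%). With no minimum fold, 17 rose and 10 fell (32.3%), against 27.4% and 27.2% of all genes. The falls were thus near the share of all genes by either rule. Without any test, 19 of 31 were higher in every IL-33 mouse than in every control mouse and 10 lower, against 31.7% of all genes in each direction. The median log2 fold change was 0.27 over the 31 genes and -0.005 over all genes.

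With LM8 added to IL-33, genes of the set moved in both directions, as all genes did. Compared with IL-33 mice, 0 of 31 genes rose by at least 2-fold (1.46% of all genes did) and 2 fell (6.45%, against 3.93%). DESeq2 and limma also called 0 higher, and 8 were higher at an unadjusted p under 0.05 in the edgeR fit without a minimum fold. With no minimum fold, 7 rose (22.6%) and 9 fell (29%) by adjusted p, against 12.6% and 13.9% of all genes. The median log2 fold change was -0.04 (-0.006 over all genes). Groups did not overlap for 8 higher and 10 lower genes (21.2% and 22% of all genes). Compared with control mice, 10 of 31 genes were higher by at least 2-fold in IL-33+LM8 mice (32.3%, against 5.87% of all genes) and 0 were lower (1.46% of all genes), where DESeq2 and limma also called 0 lower and 9 were lower at an unadjusted p under 0.05 without a minimum fold. With no minimum fold, 15 were higher (48.4%) and 7 lower (22.6%) by adjusted p, against 16.3% and 13.4% of all genes. The median log2 fold change was 0.36 (0.003 over all genes). Groups did not overlap for 17 higher and 8 lower genes (23.4% and 23.9% of all genes). The 3 comparisons share mice, since each group enters 2 of them, so they are given side by side.

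**Figure D1:**
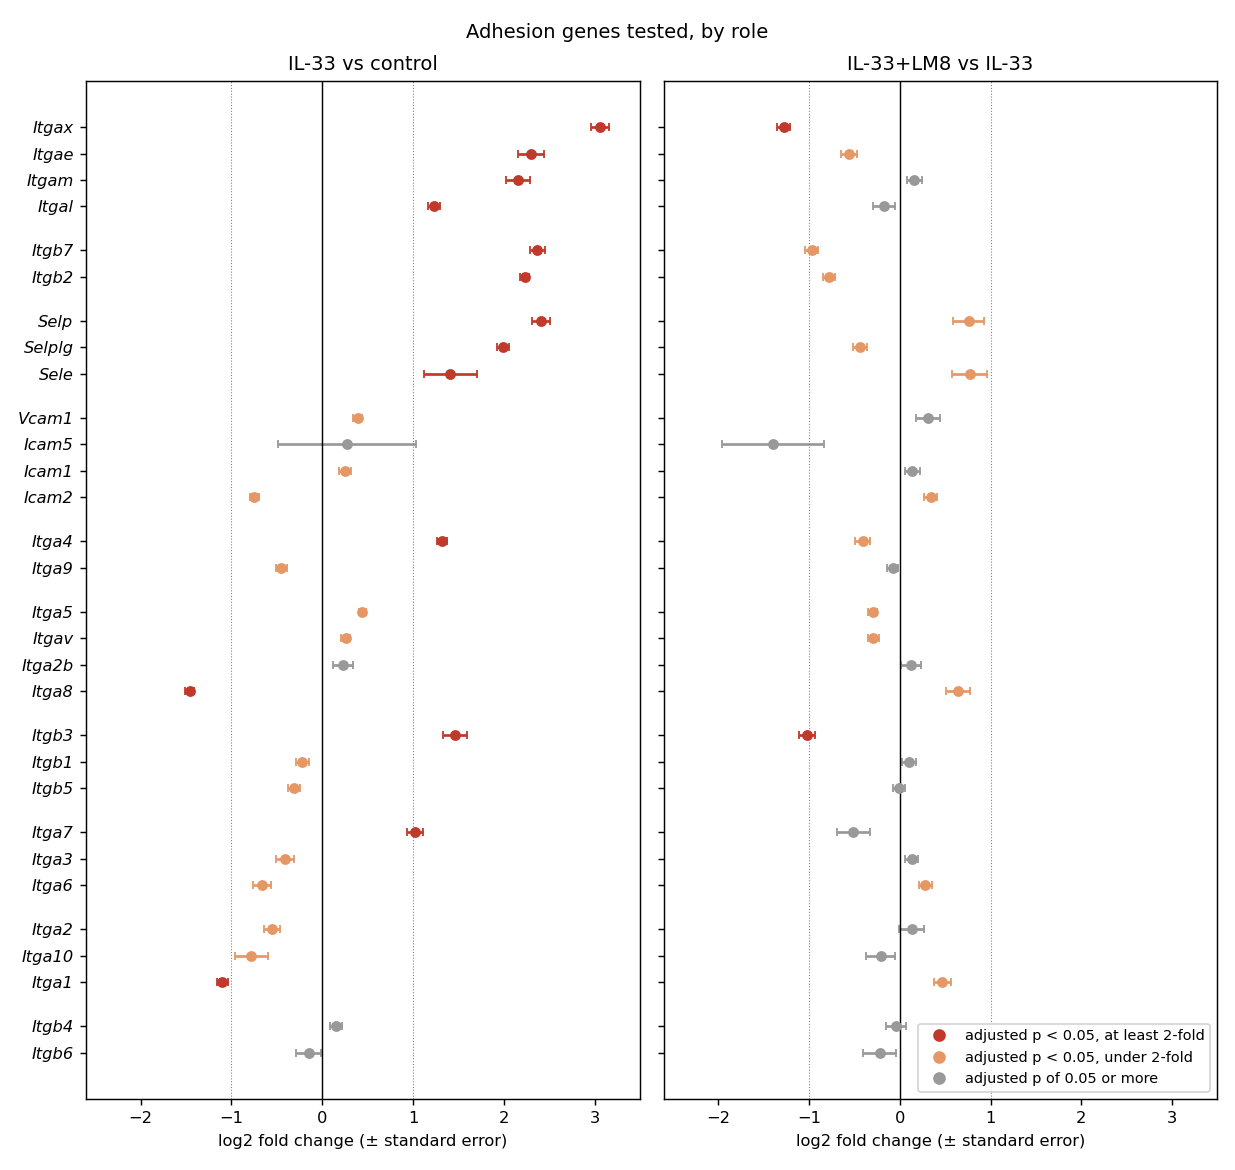
Log2 fold change with its standard error (x axis) for 30 of the genes tested (rows, grouped by role), in IL-33 against control mice (left) and IL-33+LM8 against IL-33 mice (right), 3 mice per group. Points are coloured by the test, and dotted lines mark 2-fold: 12 genes lie past the right line and 2 past the left line on the left panel, and 2 pass the left line with an adjusted p under 0.05 on the right panel.

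The leukocyte alpha chain Itgax rose more with IL-33 than any other of the 31 genes. Itgax, the alphaX chain (CD11c) of macrophages and dendritic cells, had 9.25, 7.22 and 8.66 FPKM in the control mice, 70.1, 68.5 and 71.7 in the IL-33 mice, and 27.5, 30.97 and 28.1 in the IL-33+LM8 mice. The 3 groups did not overlap, and every IL-33+LM8 mouse lay between the other groups. In IL-33 mice Itgax rose by 3.06 on the log2 scale (SE 0.10, adjusted p = 1.4e-06), and with LM8 it fell by 1.28 (SE 0.07, adjusted p = 5.1e-05), while staying 1.80 above control (SE 0.11, adjusted p = 7.3e-05). Reads of Itgax and its neighbour Itgad may be shared: 512 of 4790 stretches of 31 bases in Itgax transcripts also occur in Itgad. Itgad, the alphaD chain, had at most 68 counts in any mouse and was not tested.

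Itgam, the alphaM chain (CD11b) of neutrophils, monocytes and macrophages, took another course. It had 4.12, 2.98 and 3.28 FPKM in control mice, 14.7, 15.3 and 16.6 in IL-33 mice and 18.9, 16.1 and 17.1 in IL-33+LM8 mice. The IL-33 and IL-33+LM8 mice overlapped and both stood above every control mouse. Itgam rose by 2.16 with IL-33 (SE 0.13, adjusted p = 1.4e-05), and the log2 difference between IL-33+LM8 and IL-33 mice was 0.16 (SE 0.08, adjusted p = 0.16). Against control it was 2.34 higher in IL-33+LM8 mice (SE 0.14, adjusted p = 6.8e-05).

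Itgal, the alphaL chain of LFA-1 found on nearly all leukocytes, had 9.51, 8.67 and 9.13 FPKM in control mice, 21.3, 19.8 and 23.2 in IL-33 mice and 22.5, 15.9 and 18.9 in IL-33+LM8 mice. Here too the IL-33 and IL-33+LM8 mice overlapped. Itgal rose by 1.23 with IL-33 (SE 0.07, adjusted p = 1.2e-05), and LM8 added a difference of -0.17 that did not pass (SE 0.12, adjusted p = 0.36). Against control, Itgal was 1.08 higher in IL-33+LM8 mice (SE 0.12, adjusted p = 0.00086), but under 2-fold without IL-33+LM8 replicate 1 (0.95).

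Itgae, the alphaE chain (CD103) of intraepithelial T cells and some dendritic cells, had 1.72, 1.31 and 1.73 FPKM in control mice, 7.27, 7.67 and 8.66 in IL-33 mice and 5.68, 5.01 and 5.28 in IL-33+LM8 mice. The groups did not overlap. Itgae rose by 2.30 (SE 0.14, adjusted p = 1.3e-05), then fell by 0.56 with LM8 (SE 0.09, adjusted p = 0.0039).

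Both beta chains of leukocytes rose with IL-33 and fell with LM8. Itgb2, the beta2 chain (CD18), had 25.4, 25.7 and 24.5 FPKM in control mice, 118.1, 116.2 and 120.0 in IL-33 mice and 75.8, 66.0 and 64.6 in IL-33+LM8 mice. It rose by 2.23 with IL-33 (SE 0.05, adjusted p = 5e-07) and fell by 0.78 with LM8 (SE 0.07, adjusted p = 0.00033). Every IL-33+LM8 mouse stayed above every control mouse, by 1.46 on the log2 scale (SE 0.07, adjusted p = 3.7e-05).

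Itgb7, the beta7 chain that carries lymphocytes and eosinophils to mucosa, had 9.06, 9.99 and 10.7 FPKM in control mice, 49.99, 49.1 and 55.2 in IL-33 mice and 27.4, 24.4 and 27.0 in IL-33+LM8 mice. The 3 groups were again apart. Itgb7 rose by 2.37 (SE 0.08, adjusted p = 1.4e-06) and fell by 0.97 with LM8 (SE 0.07, adjusted p = 0.00017), just short of 2-fold. Without IL-33 replicate 2 the fall reached 2-fold (adjusted p = 0.00097).

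Itga4, the alpha4 chain that binds VCAM-1 with beta1 and MAdCAM-1 with beta7, had 4.44, 4.92 and 4.58 FPKM in control mice, 11.8, 10.8 and 12.2 in IL-33 mice and 9.58, 8.01 and 8.63 in IL-33+LM8 mice. It rose by 1.32 (SE 0.06, adjusted p = 4.8e-06), fell by 0.41 with LM8 (SE 0.08, adjusted p = 0.0067) and stayed 0.92 above control (SE 0.08, adjusted p = 0.00025). Itga4 moved less than Itgb7: the ratio of Itga4 to Itgb7 FPKM was 0.470 ± 0.0373 (SD, n = 3) in control mice, 0.226 ± 0.00822 in IL-33 mice and 0.333 ± 0.0156 among IL-33+LM8 mice. The groups did not overlap in this ratio (exact permutation p = 0.1 for each pair, two-sided, the smallest that 3 against 3 mice allow). Itga9, the related alpha9 chain, went the other way, from 15.3 to 17.0 FPKM in control mice to 11.6 to 12.2 in IL-33 mice (-0.45, SE 0.06, adjusted p = 0.00047), and had 10.5 to 11.8 in IL-33+LM8 mice.

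**Figure D2:**
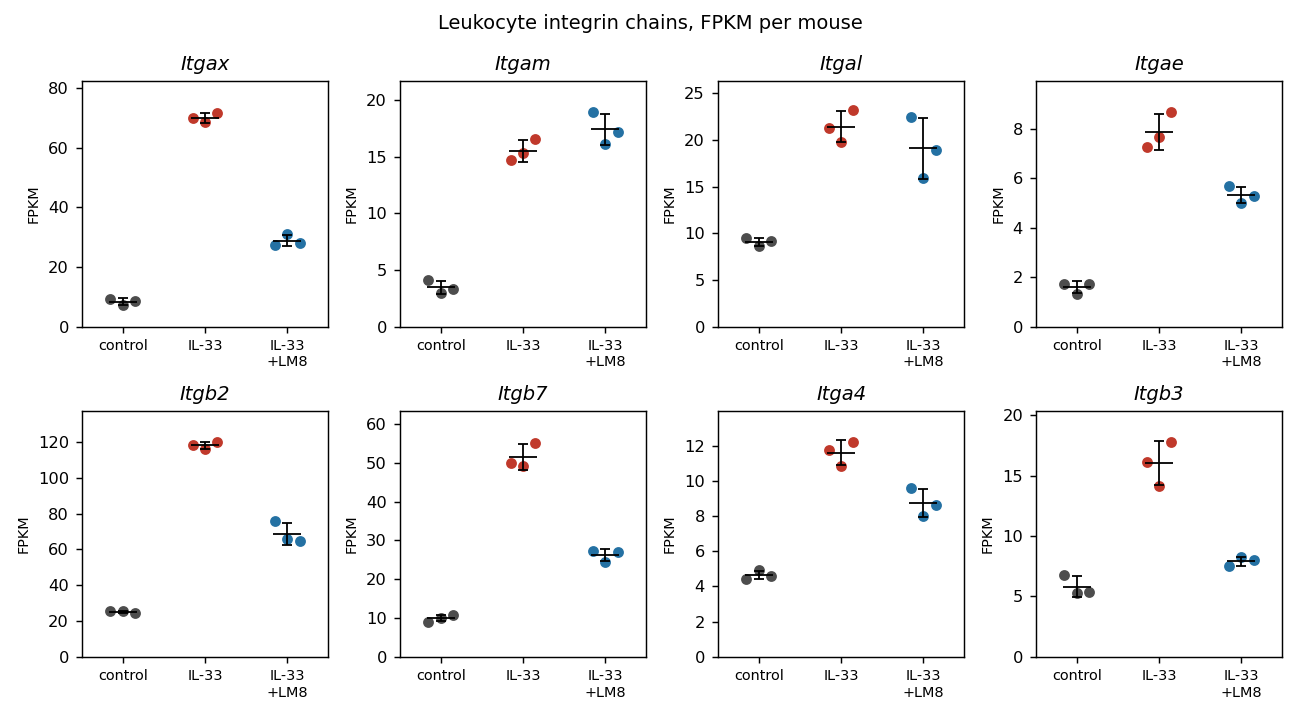
FPKM (y axis) of 8 integrin genes in each mouse (points) of the 3 groups, with the group mean and SD (lines, n = 3). Itgax, Itgb2, Itgb7, Itgae, Itga4 and Itgb3 have IL-33+LM8 mice below every IL-33 mouse, while for Itgam and Itgal these groups overlap.

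The makeup of the beta2 family therefore differed between groups. Of the summed FPKM of the 4 alpha chains that pair with beta2, Itgax took 39.7% ± 1.42 (SD, n = 3) in control mice, 65.4% ± 1.02 in IL-33 mice and 44.2% ± 4.63 among IL-33+LM8 mice. Itgam took 16.3% ± 1.295, 14.5% ± 0.562 and 26.6% ± 0.922, and Itgal 43.3% ± 2.32, 19.97% ± 0.859 and 29.1% ± 3.72. Each of these shares separated IL-33 from control mice and IL-33+LM8 from IL-33 mice without overlap by FPKM (exact permutation p = 0.1, two-sided, the smallest possible here). For Itgam the IL-33 against control difference of -1.87 percentage points did not keep its size. It was -0.659 by shares of counts in place of FPKM (exact permutation p = 0.6) and -1.13 without control replicate 1, and without any 1 of the IL-33 mice the groups gave an exact permutation p of 0.2 or 0.3. Between IL-33+LM8 and control mice the Itgax shares overlapped by FPKM, with a difference of 4.59 points (exact permutation p = 0.3). By counts they did not overlap (5.58, exact permutation p = 0.1), and the difference was 6.76 without IL-33+LM8 replicate 1 and 2.16 without IL-33+LM8 replicate 2.

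Between the myeloid chains, the ratio of Itgax to Itgam FPKM was 2.25, 2.42 and 2.64 in control mice, 4.78, 4.48 and 4.33 in IL-33 mice and 1.45, 1.92 and 1.64 in IL-33+LM8 mice. It was thus higher than control in every IL-33 mouse and lower than control in every IL-33+LM8 mouse (exact permutation p = 0.1 for each pair). The ratio of the summed alpha chains to Itgb2 FPKM was 0.837 ± 0.0898 in control mice, 0.907 ± 0.0199 in IL-33 mice and 0.953 ± 0.0435 among IL-33+LM8 mice (n = 3 each), with exact permutation p-values of 0.3, 0.2 and 0.2 for IL-33 against control, IL-33+LM8 against IL-33 and IL-33+LM8 against control. With 3 mice against 3 the smallest possible p is 0.1, so these values do not show that the ratio was equal, and with 1 mouse left out the IL-33 against control difference of 0.0699 ranged from 0.0198 (without control replicate 2) to 0.106 (without control replicate 1).

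**Figure D3:**
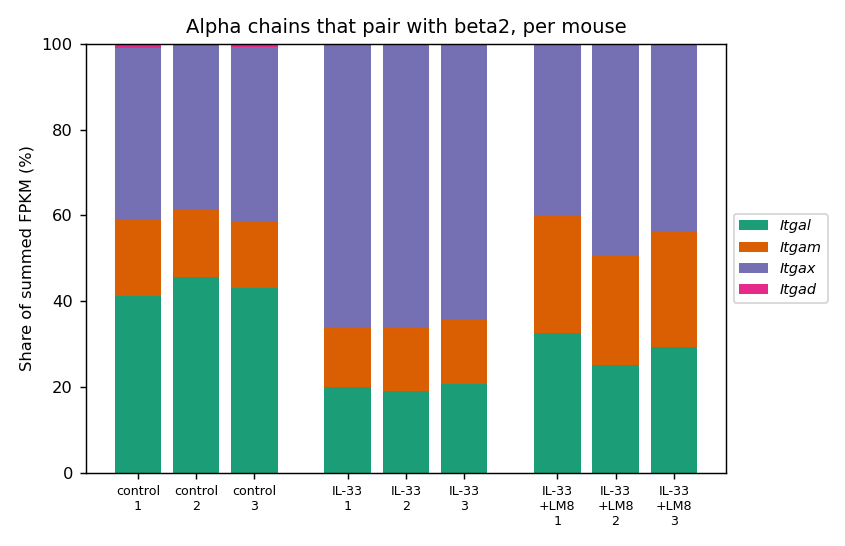
Share of the summed FPKM of Itgal, Itgam, Itgax and Itgad (stacked bars, y axis in %) in each of the 9 mice. Itgax takes 64.3% to 66.0% in IL-33 mice, and Itgam takes 25.6% to 27.4% in IL-33+LM8 mice, above its share in every other mouse.

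Markers of several leukocytes moved beside these chains. Of 6 neutrophil markers, 6 rose with IL-33 and 6 rose further with LM8. Of 5 eosinophil markers tested, 5 rose with IL-33 and 5 fell with LM8. Against control, 3 were higher in IL-33+LM8 mice and 1, Siglecf, was lower. Of 6 monocyte and interstitial macrophage markers, led by C1qb, 6 rose with IL-33, and with LM8 5 fell and 1 rose. Their sum was 68.5 to 79.7 FPKM in control mice, 426 to 451 in IL-33 mice and 198 to 213 in IL-33+LM8 mice.

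The sum of 6 alveolar macrophage markers, mostly Chil3, was 305 to 345, 4141 to 4737 and 1877 to 2210 FPKM in the same order. Under IL-33, 2 rose and 4 fell. With LM8, 3 fell, among them Chil3 (-1.16), while 3 rose, namely Marco (1.26), Krt79 (1.20) and Car4 (0.31). The 6 dendritic cell markers, led by Ccr7, summed to 34.6 to 38.5, 51.6 to 61.9 and 39.6 to 42.1 FPKM. Of them 3 rose and 2 fell under IL-33, while 1 rose and 2 fell with LM8. The 6 T cell markers, led by Trac, summed to 15.96 to 17.4, 23.2 to 26.4 and 19.2 to 25.4 FPKM, and 4 rose. The 6 B cell markers, led by Cd79b, summed to 37.3 to 47.8, 130 to 168 and 84.7 to 98.8 FPKM, and 6 rose under IL-33 and 6 fell with LM8. Counts here use an adjusted p under 0.05 without a minimum fold. By that rule 27.4% of all genes rose and 27.2% fell with IL-33, and 12.6% and 13.9% with LM8. The part of these cells in the integrin differences was not tested.

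Promoters are shown for 4 genes whose RNA rose with IL-33 and that differ in what LM8 did: Itgax fell, Sele and Selp rose further, and Itgam did not pass the test. They are RefSeq sequences of build GRCm38.p6, from 250 bases before to 50 bases after the gene start, all on the + strand. Sele is at chr1:164047984-164048283, Selp at chr1:164115014-164115313, Itgax at chr7:128129300-128129599 and Itgam at chr7:128062390-128062689. Capitals mark a match to the AP-1 motif TGANTCA on either strand.
Sele: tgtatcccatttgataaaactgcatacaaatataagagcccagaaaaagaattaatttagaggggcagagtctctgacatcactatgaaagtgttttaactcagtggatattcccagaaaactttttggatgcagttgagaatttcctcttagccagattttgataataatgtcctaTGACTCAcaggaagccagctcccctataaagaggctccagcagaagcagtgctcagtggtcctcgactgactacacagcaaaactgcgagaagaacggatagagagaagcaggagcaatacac
Selp: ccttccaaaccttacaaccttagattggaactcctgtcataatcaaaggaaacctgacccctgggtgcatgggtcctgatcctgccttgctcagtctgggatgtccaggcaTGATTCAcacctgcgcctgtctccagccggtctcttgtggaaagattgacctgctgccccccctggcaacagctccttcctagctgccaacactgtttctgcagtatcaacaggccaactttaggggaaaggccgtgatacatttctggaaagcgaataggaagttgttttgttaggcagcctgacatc
Itgax: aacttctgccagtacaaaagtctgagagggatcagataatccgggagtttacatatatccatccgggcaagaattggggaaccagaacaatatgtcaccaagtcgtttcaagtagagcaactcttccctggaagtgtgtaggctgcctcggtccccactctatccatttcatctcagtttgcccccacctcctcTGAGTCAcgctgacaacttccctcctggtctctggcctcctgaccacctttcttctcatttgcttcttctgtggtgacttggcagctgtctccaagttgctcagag
Itgam: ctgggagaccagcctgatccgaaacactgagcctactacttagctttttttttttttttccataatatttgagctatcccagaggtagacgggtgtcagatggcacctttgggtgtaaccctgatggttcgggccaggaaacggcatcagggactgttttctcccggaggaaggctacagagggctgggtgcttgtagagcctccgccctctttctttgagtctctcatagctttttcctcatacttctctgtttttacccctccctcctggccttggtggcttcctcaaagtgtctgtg
The AP-1 match begins 73 bases before the start in Sele, 139 in Selp and 56 in Itgax, and these letters are not in the Itgam window. Over all 32851 RefSeq promoters of this length, 7.81% hold the motif, and of 26 promoters of 24 of the adhesion genes, 5 do, in Itga3, Itga9, Itgax, Sele and Selp. The PU.1 core GAGGAA, searched on both strands like the rest, is in 28.3% of all promoters and in 10 of the 26, Itgam and Sele among them. TTCNNNNGAA (STAT6) is in 6.95% of all promoters and in 2 of the 26, Itga3 and Itgax, and TTCNNNGAA (STAT) in 8.3% and 3, Icam1, Itga10 and Sele. The NF-kB consensus is in 8.46% of all promoters and in 2 of the 26, Itga3 and Madcam1. Itga6, Itga7, Itgad, Itgae, Itgal, Itgb2, Itgb3, Itgb4, Icam2, Selplg and Vcam1 had no entry, among others. Itgb7, whose promoter is not shown, also rose with IL-33 and fell with LM8, and is not among the 5 genes with the AP-1 motif. A match is a match of letters, and binding was not measured. Whether any motif goes with the LM8 differences was not tested.

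Unlike Itgb2, Selp and Sele were higher with LM8 than without it. Selp encodes P-selectin, which endothelium and platelets store and move to their surface. It had 0.964, 0.923 and 0.919 FPKM in control mice, 5.24, 4.75 and 4.99 in IL-33 mice and 6.497, 10.6 and 8.19 in IL-33+LM8 mice. The 3 groups did not overlap, and IL-33+LM8 replicate 2 was highest. Selp rose by 2.41 with IL-33 (SE 0.10, adjusted p = 2.6e-06), and in IL-33+LM8 mice it was 3.18 above control (SE 0.19, adjusted p = 7.3e-05). The further rise with LM8 was 0.76 (SE 0.17, adjusted p = 0.015), and the adjusted p was 0.055 without the second and 0.051 without the third IL-33 mouse.

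Sele encodes E-selectin, which activated endothelium makes. It had 0.977, 0.552 and 1.08 FPKM in control mice, 2.47, 1.81 and 2.68 in IL-33 mice and 3.34, 4.60 and 3.93 in IL-33+LM8 mice, again without overlap. Sele rose by 1.41 with IL-33 (SE 0.29, adjusted p = 0.0049) and was 2.20 above control with LM8 (SE 0.27, adjusted p = 0.0014). The rise from IL-33 to IL-33+LM8 mice was 0.77 (SE 0.19, adjusted p = 0.023). It missed the threshold when a single mouse was left out, be it replicate 1 (0.051) or 2 (0.053) of IL-33 or replicate 2 (0.061) or 3 (0.055) of IL-33+LM8, and with the replicate number as a block (0.063), all as adjusted p.

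Selplg, the ligand PSGL-1 by which leukocytes bind P-selectin, fell with LM8 as Itgb2 did, while Selp and Sele rose. It had 8.13, 9.40 and 8.96 FPKM in control mice, 33.9, 34.0 and 37.2 in IL-33 mice and 28.6, 25.1 and 23.9 in IL-33+LM8 mice. Selplg rose by 1.99 (SE 0.07, adjusted p = 1.6e-06), fell by 0.44 with LM8 (SE 0.08, adjusted p = 0.0058) and stayed 1.57 above control (SE 0.09, adjusted p = 4.6e-05).

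Among the genes that build or carry selectin ligands, 13 of 15 were tested. With IL-33, 4 rose and 1 fell by at least 2-fold, against 10.8% and 6.24% of all genes. Spn, the leukocyte surface mucin CD43, rose most (1.65, SE 0.07, adjusted p = 3.5e-06), and Chst4, a sulfotransferase of selectin ligands, fell (-1.92, SE 0.42, adjusted p = 0.0066). Podxl, a sialomucin of endothelium and the most abundant of the list, had 100.2 ± 5.88 FPKM in control and 77.0 ± 5.32 in IL-33 mice (-0.38, SE 0.07, adjusted p = 0.003). With no minimum fold, 7 rose and 4 fell under IL-33 (27.4% and 27.2% of all genes), and the median log2 fold change was 0.31. With LM8, 0 passed 2-fold in either direction in edgeR, DESeq2 or limma (1.46% of all genes rose and 3.93% fell in edgeR). Without a minimum fold, 2 rose and 5 fell (12.6% and 13.9% of all genes). At an unadjusted p under 0.05, 3 were higher and 5 lower. Against control, 2 of the 13 were higher and 1 lower by at least 2-fold in IL-33+LM8 mice (5.87% and 1.46% of all genes). They were led by Spn (1.31) and Chst4 (-1.47). DESeq2 called 2 higher and 1 lower, and limma 1 higher and 0 lower.

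The immunoglobulin-type ligands on the vessel wall changed less with IL-33 than Selp and Sele. Icam1, the beta2 ligand that many cells make under inflammation, had 104, 93.7 and 95.7 FPKM in control mice, 117, 111 and 121 in IL-33 mice and 121, 139 and 125 in IL-33+LM8 mice. The control mice were below all others, while the IL-33 and IL-33+LM8 mice overlapped narrowly, at 121.3 and 121.1. Icam1 rose by 0.25 with IL-33 (SE 0.07, adjusted p = 0.014), and the difference added by LM8 was 0.14 (SE 0.08, adjusted p = 0.23). Vcam1, the alpha4beta1 ligand of activated endothelium, had 11.4, 10.7 and 11.3 FPKM in control mice, 14.8, 14.8 and 14.4 in IL-33 mice and 14.3, 20.8 and 19.2 in IL-33+LM8 mice. It rose by 0.39 (SE 0.05, adjusted p = 0.00035), and with LM8 the mice spread widely around a difference of 0.31 (SE 0.13, adjusted p = 0.13). Over the alternative fits that last adjusted p ranged from 0.0023 to 0.3. Against control, Vcam1 was 0.72 higher in IL-33+LM8 mice (SE 0.13, adjusted p = 0.0075).

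Icam2, which resting endothelium expresses at all times, went down. It had 55.5, 55.4 and 57.5 FPKM in control mice, 33.1, 32.4 and 34.5 in IL-33 mice and 46.5, 38.6 and 41.9 in IL-33+LM8 mice, so that the IL-33+LM8 mice lay between the other groups. Icam2 fell by 0.75 with IL-33 (SE 0.05, adjusted p = 1.4e-05) and was 0.34 higher with LM8 (SE 0.07, adjusted p = 0.013, but 0.051 without IL-33 replicate 1). Icam5, an ICAM known from neurons, was scattered between 0.168 and 1.74 FPKM over all mice and passed in no comparison in the main edgeR fits. For IL-33+LM8 against IL-33 its difference was -1.40 (SE 0.56, adjusted p = 0.11), which passed by DESeq2 (adjusted p = 0.029) and with the replicate block (-1.25, adjusted p = 0.047). Against control it was -1.12 (adjusted p = 0.26), and -1.61 without control replicate 3 (adjusted p = 0.037).

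Icam4, the erythrocyte ICAM, had 5 to 34 counts per mouse and was not tested. Madcam1, the beta7 ligand of mucosal vessels, had 0, 0 and 3 counts in control mice, 14, 34 and 12 in IL-33 mice and 0, 8 and 9 in IL-33+LM8 mice, and it too was under the filter. Its control mice were at or under the floor of 3 counts per library. In the fit with no filter it was called higher in IL-33 than control mice (log2 fold change 4.35, SE 1.25, adjusted p = 0.04), a fold that depends on the prior count and is no bound.

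**Figure D4:**
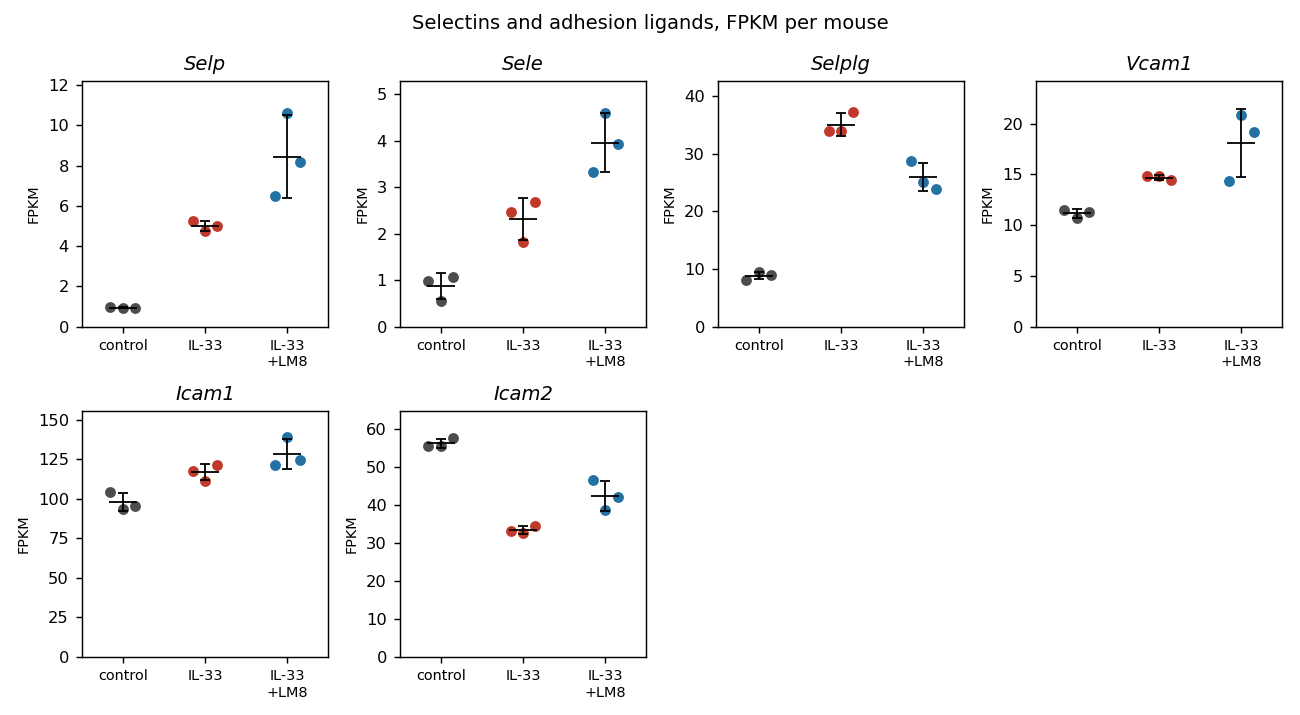
FPKM (y axis) of Selp, Sele, Selplg, Vcam1, Icam1 and Icam2 in each mouse (points), with the group mean and SD (lines, n = 3). Selp and Sele are highest in IL-33+LM8 mice, Selplg is highest in IL-33 mice, and Icam2 is lowest in IL-33 mice.

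Junction genes of endothelium moved as Icam2 did. All 9 of the list were tested. With IL-33, 9 fell by an adjusted p under 0.05 (27.2% of all genes), with a median log2 fold change of -0.59. Of these 1, Cdh5 (VE-cadherin), fell by over 2-fold (-1.08, SE 0.08, adjusted p = 4.2e-05), against 6.24% of all genes. With LM8, 7 rose (12.6% of all genes), Cdh5 by 0.68 (SE 0.08, adjusted p = 0.00093), and the median was 0.36. None reached 2-fold with LM8 in edgeR, DESeq2 or limma (1.46% of all genes rose and 3.93% fell in edgeR). At an unadjusted p under 0.05, 9 were higher. Cdh5 had 200 ± 17.9 FPKM in control mice, 94.9 ± 5.19 in IL-33 mice and 152 ± 13.7 among IL-33+LM8 mice (SD, n = 3).

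The 6 endothelial markers, led by Cldn5 and sharing Cdh5 and Pecam1 with that list, summed to 652 to 737 FPKM in control mice, 422 to 465 in IL-33 mice and 641 to 659 in IL-33+LM8 mice. Of them 4 fell with IL-33 and 6 rose with LM8. Against control, 3 were lower in IL-33+LM8 mice by adjusted p, namely Kdr (-0.61), Tek (-0.60) and Cdh5 (-0.38). By the same rule 1, Vwf (0.63), was higher. The 6 platelet markers, of which 3 were tested and Pf4 was the most abundant, summed to 11.7 to 14.6, 12.2 to 12.9 and 15.6 to 20.2 FPKM. Of those 3, Ppbp (-1.24) and Gp9 (-1.94) fell and Pf4 (1.09) rose by at least 2-fold with IL-33. With LM8, Ppbp (1.60) and Gp9 (2.41) rose by at least 2-fold and Pf4 (-0.46) fell by adjusted p alone. Their part in the values of Selp, Sele and Icam2 was not tested.

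Chains that bind the extracellular matrix moved in both directions with IL-33, and Itga8 and Itga1 were the 2 adhesion genes that fell by at least 2-fold. Itga8, the alpha8 chain of fibroblast and smooth muscle cells, which binds the RGD sequence of nephronectin and other matrix proteins, had 41.6, 39.8 and 41.2 FPKM in control mice, 14.99, 14.6 and 14.95 in IL-33 mice and 27.6, 18.4 and 23.6 in IL-33+LM8 mice. The groups did not overlap and the IL-33+LM8 mice lay in between. Itga8 fell by 1.46 (SE 0.05, adjusted p = 1.3e-06), rose by 0.64 with LM8 (SE 0.13, adjusted p = 0.0092) and remained below control (-0.80, SE 0.13, adjusted p = 0.0047).

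Itga1, the alpha1 chain that binds collagen, had 17.4, 17.3 and 17.2 FPKM in control mice, 8.16, 7.56 and 8.48 in IL-33 mice and 12.6, 9.94 and 11 in IL-33+LM8 mice. It was the other chain to fall by over 2-fold (-1.10, SE 0.06, adjusted p = 5.9e-06), and it rose by 0.47 with LM8 (SE 0.09, adjusted p = 0.0077). The other collagen-binding chains tested also fell with IL-33, Itga2 (alpha2) by 0.55 (SE 0.09, adjusted p = 0.0017) and Itga10 (alpha10) by 0.78 (SE 0.18, adjusted p = 0.0073). Neither differed by the test with LM8, at 0.13 for Itga2 (SE 0.14, adjusted p = 0.54) and -0.21 for Itga10 (SE 0.16, adjusted p = 0.4). Against control, Itga10 was lower in IL-33+LM8 mice (-0.97, SE 0.15, adjusted p = 0.0037), and reached 2-fold without control replicate 2 (-1.09, adjusted p = 0.0036) or IL-33+LM8 replicate 3 (adjusted p = 0.016). Itga11 (alpha11) had 46 to 167 counts per mouse and was not tested.

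Of the laminin receptors, Itga3 and Itga6 fell and Itga7 rose. Itga3, the alpha3 chain of epithelium and the most abundant alpha chain of control lungs, had 53.0, 42.9 and 51.9 FPKM in control mice, 38.8, 33.6 and 38.8 in IL-33 mice and 39.5, 40.6 and 41.6 in IL-33+LM8 mice. It fell by 0.41 with IL-33 (SE 0.10, adjusted p = 0.0092). Itga6, the alpha6 chain, fell by 0.66 (SE 0.10, adjusted p = 0.001) and rose by 0.28 with LM8 (SE 0.07, adjusted p = 0.024). That rise missed the threshold with the replicate block (0.051) and when replicate 2 (0.065) or 3 (0.08) of IL-33 or replicate 2 (0.055) or 3 (0.069) of IL-33+LM8 was left out, all as adjusted p. Against control Itga6 was 0.37 lower in IL-33+LM8 mice (-0.37, SE 0.09, adjusted p = 0.018), with an adjusted p of 0.05 to 0.06 without control replicate 1 or 3 or IL-33+LM8 replicate 2 or 3.

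Itga7, the alpha7 chain of muscle, had 3.44, 3.10 and 2.86 FPKM in control mice, 6.63, 6.00 and 6.46 in IL-33 mice and 3.53, 5.88 and 3.96 in IL-33+LM8 mice. It rose by 1.02 with IL-33 (SE 0.09, adjusted p = 6.9e-05), or by 0.95 without control replicate 3, which is under 2-fold. All IL-33+LM8 mice were below all IL-33 mice, but replicate 2 stayed near them and the difference of -0.51 did not pass (SE 0.18, adjusted p = 0.08). Over the alternative fits that adjusted p ranged from 0.0016 to 0.2.

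Itgb3, the beta3 chain of platelets and of alphavbeta3, had 6.78, 5.28 and 5.32 FPKM in control mice, 16.2, 14.1 and 17.7 in IL-33 mice and 7.49, 8.23 and 8.002 in IL-33+LM8 mice. No group overlapped with another. Itgb3 rose by 1.46 with IL-33 (SE 0.13, adjusted p = 7.7e-05) and, with Itgax, was the other gene that fell by 2-fold with LM8 (-1.02, SE 0.09, adjusted p = 0.00038). That fall was -0.92 without the third IL-33 mouse and -0.97 without the first IL-33+LM8 mouse, both under 2-fold. It remained 0.46 above control (SE 0.12, adjusted p = 0.025), with an adjusted p of 0.064 to 0.073 without control replicate 2 or 3 or IL-33+LM8 replicate 2 or 3.

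Apart from Itga8, the RGD-binding alpha chains, Itgav, Itga5 and Itga2b, changed by under 2-fold in every comparison. Itgav (alphav), which also pairs with beta5, beta6 and beta8, had 5.40, 5.41 and 5.59 FPKM in control mice, 6.49, 6.43 and 6.79 in IL-33 mice and 5.52, 5.13 and 5.52 in IL-33+LM8 mice. Its rise of 0.26 (SE 0.05, adjusted p = 0.0028) was followed by a fall of equal size with LM8 (-0.29, SE 0.06, adjusted p = 0.01), and IL-33+LM8 mice differed from control by -0.01 (SE 0.06, adjusted p = 0.95). Itga5, the alpha5 chain of the fibronectin receptor, had 13.8, 13.85 and 13.6 FPKM in control mice, 19.1, 18.3 and 18.6 in IL-33 mice and 15.2, 15.7 and 14.5 in IL-33+LM8 mice. It rose by 0.44 (SE 0.04, adjusted p = 0.00011) and fell by 0.30 with LM8 (SE 0.05, adjusted p = 0.0056). Itga2b, the alphaIIb chain of platelets, lay between 1.53 and 2.16 FPKM in all mice, and its IL-33 difference of 0.23 did not pass (SE 0.11, adjusted p = 0.11). Against control it was 0.36 higher in IL-33+LM8 mice (SE 0.11, adjusted p = 0.046), which did not pass without any 1 of the 6 mice (adjusted p 0.063 to 0.12).

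Against control, Itga2, Itga3 and Itga5 in IL-33+LM8 mice passed with the replicate number as a block and in a fit of all 9 mice, but not in the fit of the 6 mice alone. In that last fit the differences were -0.40, -0.27 and 0.16 (adjusted p = 0.092, 0.065 and 0.077), and with the block the adjusted p was 0.012, 0.044 and 0.048.

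Itgb1, the most abundant gene of the set, had 189.9, 197.6 and 214.1 FPKM in control mice, 180.1, 160.0 and 176.5 in IL-33 mice and 181.6, 172.1 and 198.3 in IL-33+LM8 mice. Its fall of 0.22 on the log2 scale with IL-33 (SE 0.07, adjusted p = 0.028) did not pass with the replicate block (0.061), nor without control replicate 3 (0.096) or IL-33 replicate 1 (0.063), 2 (0.12) or 3 (0.069). Itgb5, the beta5 chain, fell by 0.31 with IL-33 (SE 0.07, adjusted p = 0.0069), from 28.7 to 34.1 FPKM in control mice to 24.7 to 25.4 in IL-33 mice. It differed by -0.01 with LM8 (adjusted p = 0.96) and was 0.30 lower than control in IL-33+LM8 mice (-0.30, adjusted p = 0.046), which did not pass without control replicate 1 (0.062), 2 (0.14) or 3 (0.066) or IL-33+LM8 replicate 2 (0.14) or 3 (0.14).

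Itgb4, which pairs with alpha6 in epithelium, and Itgb6, which binds latent TGF-beta with alphav, did not pass in any comparison in the main fits. With IL-33 the adjusted p of Itgb6 ranged from 0.028 to 0.83 over the alternative fits. Itgb4 lay between 3.12 and 4.22 FPKM and Itgb6 between 1.73 and 3.44 FPKM over all mice. Itgb8, the other chain that binds latent TGF-beta with alphav, was just under the filter with a mean of 0.490 FPKM. It had 156, 180 and 108 counts in control mice, 548, 482 and 482 in IL-33 mice and 289, 468 and 576 in IL-33+LM8 mice. With no filter on low values, Itgb8 rose by 1.88 with IL-33 (SE 0.26, adjusted p = 0.0015).

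**Figure D5:**
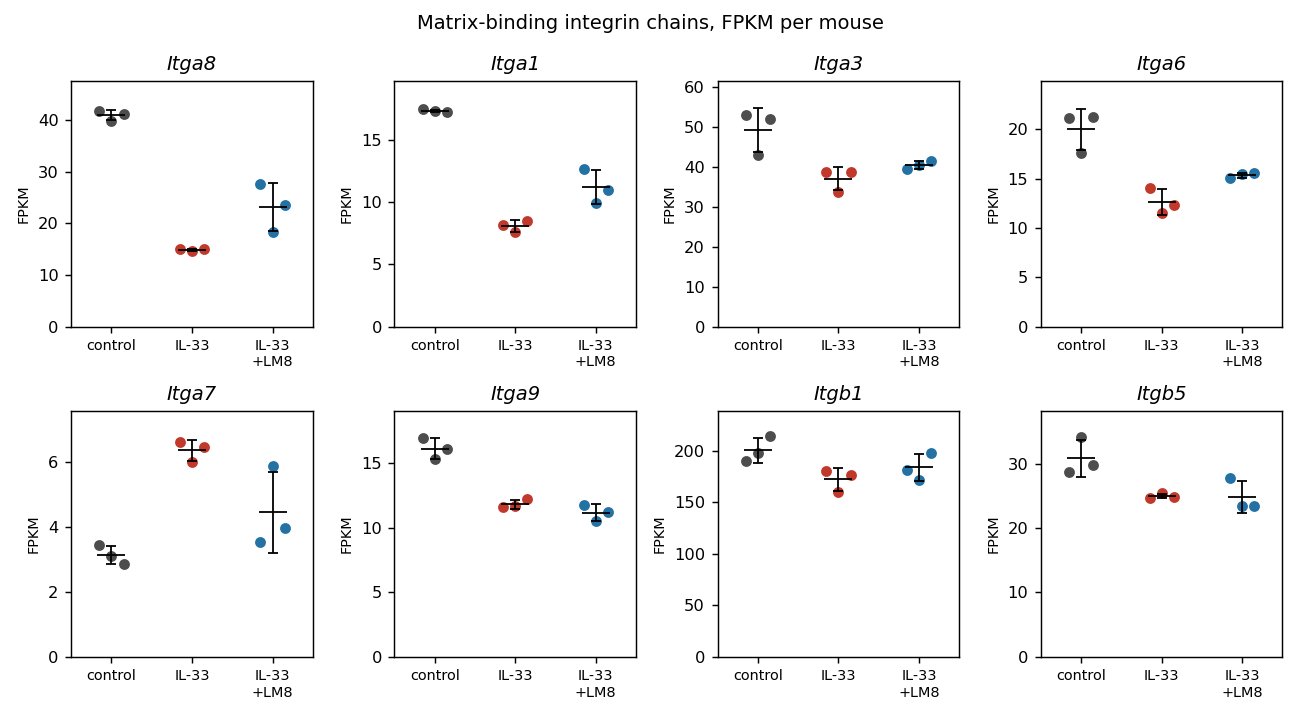
FPKM (y axis) of 8 matrix-binding integrin genes in each mouse (points), with the group mean and SD (lines, n = 3). Itga8 and Itga1 are highest in control mice, lowest in IL-33 mice and between them in IL-33+LM8 mice, whereas Itga7 is highest in IL-33 mice.

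These differences changed the order of the chains. Ranked by mean FPKM among 18 alpha chains, Itga3 (49.3 ± 5.54) and Itga8 (40.9 ± 0.962) led in control mice, and Itgax (8.38 ± 1.05) was 8th. In IL-33 mice Itgax led with 70.1 ± 1.60 and 28% of the summed alpha chains, ahead of Itga3 (37.0 ± 2.97). In IL-33+LM8 mice Itga3 led again (40.5 ± 1.03), followed by Itgax (28.9 ± 1.86) and Itga8 (23.2 ± 4.62). Among the beta chains, Itgb1 took 71.9% ± 1.46 of the summed FPKM in control mice, 44.1% ± 1.22 in IL-33 mice and 57.8% ± 2.48 among IL-33+LM8 mice, while Itgb2 took 9.05% ± 0.562, 30.3% ± 0.820 and 21.6% ± 1.78. Both shares were apart between all groups (exact permutation p = 0.1 for each pair).

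Genes that switch integrins on moved in both directions. Of 20 activators and adaptors, all tested, 6 rose and 2 fell by at least 2-fold with IL-33 (10.8% and 6.24% of all genes). With no minimum fold 8 rose and 9 fell (27.4% and 27.2% of all genes), with a median log2 fold change of -0.07. Fermt3, kindlin-3 of blood cells, rose most (2.10, SE 0.05, adjusted p = 6.8e-07), whereas Fermt2, kindlin-2 of other tissues, fell (-1.05, SE 0.05, adjusted p = 4.9e-06), as did Tln2 (talin-2, -1.05, SE 0.08, adjusted p = 4.3e-05). With LM8, Fermt3 fell by 0.72 (SE 0.07, adjusted p = 0.00039) and Fermt2 rose by 0.57 (SE 0.05, adjusted p = 0.00029), whereas the Tln2 difference of 0.38 did not pass (SE 0.14, adjusted p = 0.091).

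With LM8, 5 of the 20 rose and 5 fell without a minimum fold (12.6% and 13.9% of all genes). By at least 2-fold, 0 passed in edgeR, DESeq2 or limma (1.46% of all genes rose and 3.93% fell in edgeR). At an unadjusted p under 0.05, 8 were higher and 5 lower. Against control, 5 were higher and 0 lower by at least 2-fold in IL-33+LM8 mice (5.87% and 1.46% of all genes). DESeq2 called 5 higher as well, but limma called 2. Both called 0 lower, and 7 were lower at an unadjusted p under 0.05 in the edgeR fit. In that comparison Fgr, a Src-family kinase of myeloid cells, led with 1.93 (SE 0.12, adjusted p = 9.6e-05). Rap1b, the small GTPase that was the most abundant of the list, had 86.4 ± 11.5 FPKM in control, 116 ± 11.6 in IL-33 and 115 ± 13.4 in IL-33+LM8 mice.

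Of 15 soluble and matrix ligands of integrins, all tested, 5 rose and 2 fell by at least 2-fold with IL-33. By that rule 10.8% of all genes rose and 6.24% fell. Tnc, the alpha9beta1 ligand tenascin-C, rose most (2.26, SE 0.24, adjusted p = 0.00021), and Npnt, the alpha8beta1 ligand nephronectin, fell most (-1.34, SE 0.08, adjusted p = 1.4e-05), as Itga8 also did. With LM8, 3 of the 15 fell by at least 2-fold and 0 rose (3.93% and 1.46% of all genes). DESeq2 and limma also called 0 higher, and 3 were higher at an unadjusted p under 0.05. Tnc fell most with LM8 (-1.55, SE 0.20, adjusted p = 0.0013). The most abundant, Spp1 (osteopontin), had 123 ± 20.02 FPKM in control mice, 310.3 ± 16.2 in IL-33 mice and 116 ± 23.9 among IL-33+LM8 mice (-1.42 with LM8, SE 0.14, adjusted p = 0.00046).

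Against control, Emilin1, an alpha4beta1 and alpha9beta1 ligand, was higher by 1.14 in IL-33+LM8 mice (SE 0.15, adjusted p = 0.0018), and Npnt lower by -1.01 (SE 0.10, adjusted p = 0.00049). This count of 2 ranged from 0 without IL-33+LM8 replicate 2 to 4 without control replicate 2 or IL-33+LM8 replicate 1. It was 1 without control replicate 1. Of all genes, 5.87% were higher and 1.46% lower by at least 2-fold in that comparison. The medians of the list were -0.26, -0.07 and -0.31 in IL-33 against control, IL-33+LM8 against IL-33 and IL-33+LM8 against control.

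Markers of tissue cells that carry matrix receptors, and of erythroid cells in the blood, also moved. Led by Acta2, the 6 fibroblast and smooth muscle markers summed to 245 to 262 FPKM in control mice. Their sum was 445 to 490 in IL-33 mice and 322 to 360 in IL-33+LM8 mice, with 4 rising and 2 falling under IL-33. With LM8, Col1a1 (-1.89) and Col1a2 (-1.40) fell, and Pdgfra (0.60) and Myh11 (0.37) rose by adjusted p. Acta2 (0.18) and Dcn (-0.02) did not pass. The 6 epithelial markers, mostly Scgb1a1, summed to 32211 to 35084, 14020 to 15244 and 26586 to 28768 FPKM, with 3 falling and 1 rising under IL-33. The 6 erythroid markers, led by Hbb-bs, summed to 7848 to 9293, 2539 to 3188 and 10886 to 12338 FPKM, with 5 falling under IL-33 and 6 rising with LM8. The part of these tissue and blood cells in the values of the adhesion genes and the leukocyte and platelet markers was not tested.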

How the data were processed

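Lung RNA of 9 samples was sequenced paired-end. Read counts and FPKM per gene were made by the authors and are held in 1 deposited table, with the counts not normalized, and the submitters' processing notes name HISAT2 2.0, StringTie 1.3.0, Bowtie 0.12.2 and build mm10. The table's gene starts and ends were those of GRCm38 (GENCODE M21) for 0 of 36 genes, so none is printed. Whether counting used strand is not given in the sources used here.

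Counts were fitted with edgeR 4.0.16 (R 4.3.3, TMM, quasi-likelihood test), each comparison on its own 6 mice, for genes with a mean of at least 0.5 FPKM over 9 mice. Between 16829 and 16831 genes were tested, and p-values were adjusted over all of them by Benjamini-Hochberg. The script was tested on simulated data. Shares and ratios of FPKM used exact permutation tests, two-sided. Alternatives were DESeq2 1.42.0, limma 3.58.1 on log2(FPKM + 1) and log2(FPKM + 0.1), other scaling factors, other filters, a replicate block and leaving out each mouse. No libraries of a group were duplicates, with chi-squares per gene of 21.9 to 50.6.

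All adhesion genes are named but 1, which is in the counts and is not reported here. From each other list the most abundant gene and, where called, the largest rise and fall are named. The genes, lists and tests were chosen with earlier results of these data known. Counts of up to 3 were the floor, which covers counting error only, since reads carry no molecular identifiers.

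Same-numbered mice were compared by the correlation of their deviations from group means. It was -0.42 to 0.28 for control and IL-33 and -0.40 to 0.22 for IL-33 and IL-33+LM8. For control and IL-33+LM8 it was 0.31 to 0.67, where all 3 pairs passed 0.1. Even so, the main fits left all mice unpaired, and every value given without a named setting comes from them. The replicate block was an alternative only. The labels give no source for a pairing.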

Additional observations from a re-analysis of the deposited data

How the results depend on the processing

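Counts of adhesion genes kept within 1.5 times their value under other scaling factors, filters, DESeq2 and a fit of all 9 mice. Without a minimum fold, 10 were lower in IL-33 than control mice, 7 higher and 9 lower with LM8, and 7 lower in IL-33+LM8 than control mice. The lists were then counted in the order IL-33 against control, IL-33+LM8 against IL-33 and IL-33+LM8 against control. They held 17, 10 and 14 activators and adaptors and 11, 7 and 7 selectin ligand genes. Junction genes came to 9, 7 and 3 and matrix ligands to 11, 7 and 9. Of all genes, 27.4%, 12.6% and 16.3% were higher by that rule and 27.2%, 13.9% and 13.4% lower. By limma on log2(FPKM + 1), 1 gene was lower with LM8, since Itgb3 (-0.93) was under 2-fold, as were Itga7 (0.83) and Sele (0.83) with IL-33 and Itgal (0.98) in IL-33+LM8 against control mice. The fits with no filter lost Itgb1 with IL-33 and Itgb5 and Itga2b in IL-33+LM8 against control mice, by adjusted p alone. They called 15 genes higher with IL-33, adding Madcam1 and Itgb8, and 11 higher in IL-33+LM8 than control mice, adding Itgb8 (1.49, adjusted p = 0.016).

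With 1 mouse left out, 1 to 3 genes were lower with LM8, 0 to 1 lower in IL-33+LM8 than control mice (1 without control replicate 2 or 3 or IL-33+LM8 replicate 3), and 0 to 4 matrix ligands differed from control. Uncalled differences changed sign for Icam5 in IL-33 against control (-0.47 to 0.89 with 1 mouse left out), Itga2 (-0.01 to 0.27), Itgb4 (-0.16 to 0.05) and Itgb5 (-0.09 to 0.05) with LM8, and Itgav in IL-33+LM8 against control (-0.02 to 0.03). Itgb5 was 0.01 with no filter, 0.00 at a mean FPKM of at least 5 and 0.01 with all 9 mice, and Itgav 0.01 with no filter. The cause was not tested.

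The replicate block gave 13 higher and 2 lower genes for IL-33 against control, 0 and 3 for LM8 (Icam5 added), and 10 and 0 for IL-33+LM8 against control. By adjusted p alone it gave 16 and 9 in that last comparison against 15 and 7, adding Itga2, Itga3 and Itga5, and elsewhere it lost Itgb1 with IL-33 and Itga6 and Sele with LM8. Deviations of control replicate 3 also correlated with those of IL-33 replicate 1, which has another number (0.65), as did those of IL-33 replicate 1 with IL-33+LM8 replicate 3 (0.67), and in control and IL-33+LM8 mice, replicates 1 and 2 (0.20) and 2 and 1 (0.17). Control replicate 3, IL-33 replicate 1 and IL-33+LM8 replicate 3 had the largest total counts of their groups (73869252, 66029783 and 90607218). The part of depth in these correlations was not tested. With 3 mice per group, changes near the spread of 1 mouse stay undetected, and genes under 0.5 FPKM were not tested.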
